A study of Mus musculus with 12 samples.

Results

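The 41 genes described here are genes that the lining of the small intestine is known to use, measured in pancreatic islets of mice. They were taken by symbol from a table of 24421 genes, and all 41 were among the 17411 genes with enough counts to be tested. By role, 9 were brush-border enzymes of enterocytes, 8 served uptake and lipid handling in enterocytes, 3 belonged to brush-border structure and adhesion, and 2 were intestinal transcription factors. A further 10 were other genes of the intestinal lining, 2 were goblet cell genes and 7 were Paneth cell genes. The study asked how deletion of the clock gene Bmal1 in beta cells alters the islet response to streptozotocin (STZ), a toxin that beta cells take up. Islets were profiled by stranded mRNA sequencing in 12 libraries: each of 6 groups has a library A and a library B.

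Control mice were Bmal1fl/fl, that is, they carried the floxed gene without a recombinase. Knockout mice were Bmal1fl/flRIPCreERT/+ and carried in addition a tamoxifen-inducible Cre driven by the rat insulin promoter, so recombination was aimed at the beta cells of an islet and not at its other cells. Each genotype had a group given citrate buffer (vehicle) and taken after 24 h, a group given a submaximal STZ dose and taken after 24 h, and a group taken 4 wk after STZ. Vehicle islets at 4 wk were not analysed here, so a comparison of STZ 4 wk with vehicle joins treatment and elapsed time. The labels do not say whether A and B are different animals. The p-values therefore rest on the spread between a group's libraries, and that spread may be technical only. In bulk islet RNA, fewer cells of a type and less RNA per cell cannot be told apart.

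The lining of the small intestine is renewed from stem cells at the base of its crypts. Enterocytes carry a brush border of microvilli with digestive enzymes and transporters, goblet cells secrete the mucus gel, and Paneth cells at the crypt base secrete antimicrobial peptides. The homeobox factors CDX1 and CDX2 maintain intestinal identity, and CDX2 is known to bind close to the starts of Sis and Lct. Islets are endocrine tissue and are not known for these programmes, although single genes among the 41 are used by other epithelia too.

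Libraries held 101772241 to 127207523 estimated counts. The 10 beta cell genes checked, among them Ins1, Ins2 and Iapp, had counts in every library and together took 1.96% to 15.7% of them, lowest in knockout STZ 24 h at 1.96% and 2.19%. The whole-gene level of Bmal1, listed as Arntl, did not check the labels, since its direction differed between conditions. As CPM, the count relative to the scaled library total, it was 8.79 and 8.36 in control vehicle and 17.8 and 19.9 in knockout vehicle. At STZ 24 h it was 11.2 and 10.8 in control and 8.88 and 9.43 in knockout. At STZ 4 wk it was 20.6 and 20.4 in control and 11.3 and 11.6 in knockout. A deleted exon leaves the rest of the transcript to be counted. Of its 20 annotated exons, exon 8 was the only one with a lower relative depth in all knockout than in all control libraries, with means of 0.870 and 1.63 times the mean over all exons. That exon was chosen after its values were seen, and the labels name no floxed exon.

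The 41 intestinal genes together took the largest share of counts in knockout islets 4 wk after STZ. Their share was 0.00860% and 0.00902% in the control vehicle libraries A and B, 0.0147% and 0.0148% in control STZ 24 h, and 0.0499% and 0.0503% in control STZ 4 wk. In knockout it was 0.0116% and 0.00909% with vehicle, 0.146% and 0.149% at STZ 24 h, and 1.62% and 1.55% at STZ 4 wk. Both knockout STZ groups lay above all control libraries, and the gap between A and B was small beside the gap between groups. The number of the 41 genes with 0 counts ran the other way: 32 and 27 in knockout vehicle, and 26 and 23 with vehicle in control. At 4 wk after STZ, 9 were at 0 in each control library. In each knockout STZ 24 h library it was 4, and in each knockout STZ 4 wk library 0. Vil1, Slc5a1, Fabp2 and Apoa4 were the 4 genes with counts in every library.

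For 39 of the 41 genes, knockout STZ 4 wk was the highest group and did not overlap with any other. The other two, Akp3 and S100g, were highest in knockout STZ 24 h, also without overlap. Of all 17411 genes tested, 9.57% had both knockout STZ 4 wk libraries above the 10 others and 22.7% both knockout STZ 24 h libraries. Enpp7 and 6 of the 7 Paneth genes, all but Itln1, passed the filter on low counts only through knockout STZ 4 wk and so had to differ there. Itln1, Slc5a12 and Clca4a had at most 4, 3 and 6 counts in any library outside the knockout STZ groups. They passed the filter only through these groups, so their calls against control after STZ are not independent tests. Knockout STZ 24 h came second for 32 genes. Coverage spanned most exons in the groups with high levels: of the 476 exons of the 41 genes, 473 and 474 had a mean depth of at least 0.1 in knockout STZ 4 wk, 441 and 447 in knockout STZ 24 h, 366 and 369 for control STZ 4 wk, and 53 to 164 in the other 6 libraries. All 47 exons of Sis were covered in these 3 groups, and 45 of the 46 exons of Muc2 in both knockout STZ 4 wk libraries.

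**Figure D1:**
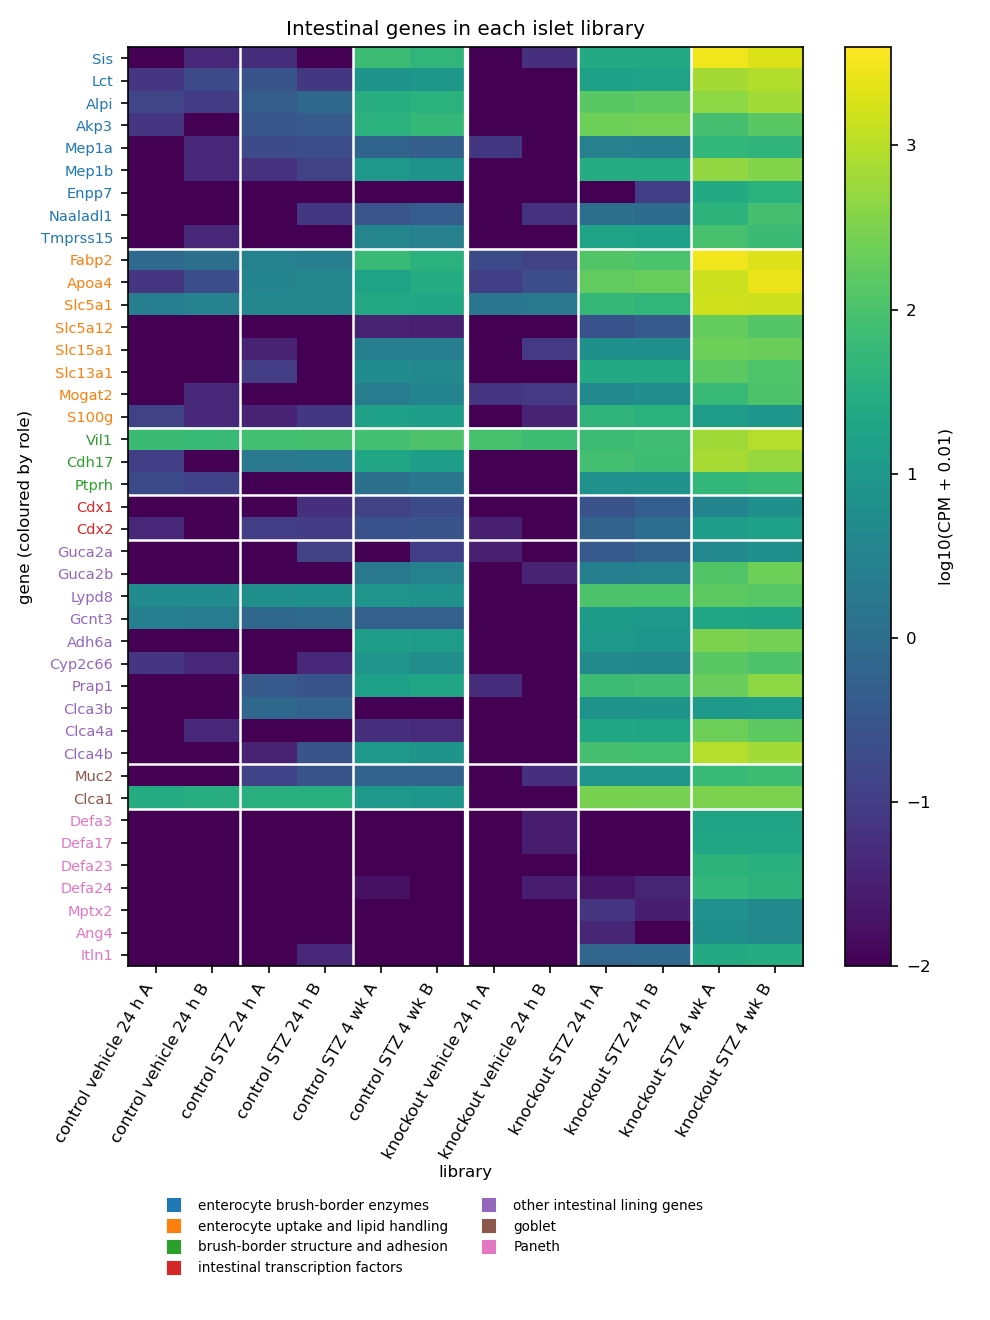
Heat map of log10(CPM + 0.01) for the 41 intestinal genes (rows, coloured by role) in the 12 libraries (columns, A and B of each group). The brightest columns are knockout STZ 4 wk, in which none of the genes was at 0, and the 4 defensin rows are near the floor in all other groups.

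Knockout and control were compared within each condition with edgeR's quasi-likelihood test over all 17411 genes, calling a gene at a Benjamini-Hochberg adjusted p under 0.05. Differences are on the log2 scale with their SE, and the adjusted p stands in brackets. With vehicle, 7 of the 41 genes were lower in knockout and 0 higher, against 7.68% and 1.96% of all genes tested. The 7 were Clca1, Lypd8, Gcnt3, Ptprh, Fabp2, Slc5a1 and Alpi, the last not called without control vehicle A (0.0802) or without knockout vehicle A (0.0734) or B (0.0601). In the same comparison 12 of 14 hepatocyte genes and 8 of 11 tested stomach lining genes were lower in knockout too, and their part in the result was not tested. With library totals as the only scaling, 8 were lower and 1, Vil1, was higher. That scaling moved the median of all genes by 0.53 on the log2 scale.

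At STZ 24 h, 33 of the 41 were higher in knockout than in control and 0 lower, against 23.7% and 19.4% of all genes. The 8 not called were Vil1, Enpp7, Guca2a, Ang4 and the defensins Defa3, Defa17, Defa23 and Defa24. The median log2 difference over the 41 was 5.37, or 5.33 with the 10 genes that had a group at 0 counts set at their bound, and that of all genes 0.0015. At STZ 4 wk, 40 were higher and 0 lower, against 19.9% and 7.89% of all genes, with S100g the only gene not called. The 40 include the 7 genes that passed the filter only through knockout STZ 4 wk and so had to differ there. The same limit holds wherever knockout STZ 4 wk is compared below. Itln1, Slc5a12 and Clca4a, which passed the filter only through the knockout STZ groups, are in both the 33 and the 40. The median over the 41 was 6.07, against 0.0067 for all genes.

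Within control, STZ 24 h against vehicle gave 9 higher and 2 lower genes, against 5.41% and 2.15% of all genes, with a median of 0.44 (0.31 with genes that had a group at 0 at their bound). Apoa4 rose by 4.67 ± 0.55 (adjusted p 0.0007, edgeR) and Cdh17 by 5.24 (0.00124), whereas Gcnt3 fell by 1.62 (0.000618) and Ptprh was at least 11.96-fold lower (0.00179). In the same comparison 13 of 14 hepatocyte genes and 6 of 10 macrophage genes were higher, Apoa4 is also made in liver, and their part in the result was not tested. The counts were 4 and 2 without control vehicle A, without control vehicle B or without control STZ 24 h B. STZ 4 wk against vehicle gave 25 higher and 2 lower genes in control, against 4.98% and 4.01% of all genes, with a median of 5.63 (4.44 with genes that had a group at 0 at their bound). The 2 that fell were Clca1 and Gcnt3. Within knockout, 34 were higher and 0 lower at STZ 24 h than with vehicle, against 30.1% and 26.2% of all genes, and all 41 were higher at STZ 4 wk, where 24.1% of all genes were higher and 11.7% lower. The medians were 9.57 and 14.1 (8.52 and 12.4 with the bounds). The comparisons with vehicle share their vehicle libraries, and the comparisons of genotypes share the STZ libraries with them.

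Sis and Lct, the sucrase-isomaltase and lactase of the brush border, are the enterocyte genes against which goblet and Paneth genes were set. Sis lies on chromosome 3 from 72888560 to 72966866 and Lct on chromosome 1 from 128284764 to 128328318 (mm10), both on the minus strand. Because Cdx1 and Cdx2 were among the genes that moved with them, the 250 bases before the start of each are shown, from the RefSeq table (GRCm38.p6, minus strand), with a CDX hexamer in capitals. The Sis window is chr3:72967864-72968113 and the Lct window chr1:128328319-128328568.

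Sis: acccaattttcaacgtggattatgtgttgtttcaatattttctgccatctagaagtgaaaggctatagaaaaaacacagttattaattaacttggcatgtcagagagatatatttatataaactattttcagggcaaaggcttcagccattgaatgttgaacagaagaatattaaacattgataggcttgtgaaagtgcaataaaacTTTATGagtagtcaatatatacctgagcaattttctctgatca

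Lct: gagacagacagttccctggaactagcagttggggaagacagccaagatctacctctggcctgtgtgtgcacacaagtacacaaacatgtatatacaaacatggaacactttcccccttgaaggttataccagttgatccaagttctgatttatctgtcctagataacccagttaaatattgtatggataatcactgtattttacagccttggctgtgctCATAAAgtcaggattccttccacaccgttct

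The hexamer is TTTATG, 43 bases before the RefSeq start in Sis, and its reverse complement CATAAA, 31 bases before it in Lct. The RefSeq start of Sis lies 997 bases upstream of the start of the deposited transcript, whereas the starts of Lct are the same. Of the 28 genes matched to the table, 6 (Clca3b, Clca4b, Itln1, Lct, Sis and Tmprss15) had the hexamer in either orientation in this window, and so had 10.8% of all 32851 windows. The octamer CAAAGTCC, known from HNF4 factors, stood in the windows of Alpi and Cyp2c66 and in 1.2% of all windows. A match describes these letters and is not a binding site shown by these data.

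Sis was at or near 0 with vehicle in both genotypes and was among the most abundant of the 41 in knockout at 4 wk. Its level was 0 and 0.0341 CPM in control vehicle and 0 and 0.0490 in knockout vehicle. At STZ 24 h it was 0.0438 and 0 in control and 26.1 and 25.1 in knockout. At STZ 4 wk it was 67.9 and 49.3 in control and 2990.0 and 2034 in knockout. The genotypes did not overlap at either time after STZ. The log2 difference of knockout from control was 10.18 ± 0.71 (SE) at 24 h, with an adjusted p of 1.15e-05 by edgeR, and 5.42 ± 0.47 at 4 wk, with an adjusted p of 4.88e-05. In control, too, Sis rose from vehicle to STZ 4 wk, by a count ratio of 3477 with a 95% counting interval of 1189 to 16860.0.

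Lct, active in mice mainly before weaning, was also highest in knockout at 4 wk, but was higher in knockout at 24 h than in control at 4 wk, the reverse of Sis. It was 0.0653 and 0.159 CPM in control vehicle, 0.272 and 0.0721 in its STZ 24 h group, and 7.72 and 9.32 in its STZ 4 wk group. In knockout it was 0 in both vehicle libraries, 15.7 and 17.0 at STZ 24 h, and 709 and 918 at STZ 4 wk. The knockout STZ libraries were all above the highest control library. Knockout exceeded control by 6.59 ± 0.47 at 24 h (adjusted p 2.79e-05, edgeR) and by 6.58 ± 0.43 at 4 wk (2.31e-05) on the log2 scale.

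Tmprss15 encodes enteropeptidase, the duodenal protease that activates trypsinogen from the pancreas. It was at 0 in 5 of the 6 vehicle and control STZ 24 h libraries and at 0.0341 CPM in the remaining one, control vehicle B. It was 3.51 and 2.72 in control STZ 4 wk. Knockout libraries had 17.4 and 15.7 at STZ 24 h, then 92.4 and 65.2 at 4 wk. Knockout was at least 1314-fold higher than control at 24 h, against a floor of 3 counts over the control group, and 4.66 ± 0.35 higher at 4 wk on the log2 scale (adjusted p 0.000119, edgeR).

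The alkaline phosphatases Akp3 and Alpi differed in their order of groups. Akp3, the form enriched in the duodenum, was 0.0653 CPM or less in the 4 vehicle libraries and 0.307 and 0.369 in control STZ 24 h. It was 36.9 and 54.6 in control STZ 4 wk. Knockout libraries had 232 and 258 at STZ 24 h, then 91.0 and 145 at 4 wk. It was thus highest in knockout at 24 h, with no overlap. Alpi was 144 and 159 in knockout STZ 24 h, then 441 and 651 at 4 wk, and 30.3 and 38.4 in control STZ 4 wk. At 24 h, knockout exceeded control by 9.50 ± 0.51 for Akp3 (adjusted p 7.93e-06, edgeR) and by 7.98 ± 0.36 for Alpi (4.35e-06). At 4 wk the differences were 1.37 ± 0.35 for Akp3 (0.0227) and 3.99 ± 0.29 for Alpi (4.36e-05). The 4 wk call of Akp3 was lost without control STZ 4 wk A (0.119), without knockout STZ 4 wk B (0.0700) and with only the groups compared in the fit (0.0568).

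Of the 9 brush-border enzymes, 8 were higher in knockout at STZ 24 h and 9 at STZ 4 wk. The one not called at 24 h was Enpp7, the alkaline sphingomyelinase, which was 0 in every control library and 26.2 and 36.8 CPM in knockout STZ 4 wk. It passed the filter only through knockout STZ 4 wk, so its call there was not an independent test. The meprin metalloproteases Mep1a and Mep1b and the peptidase Naaladl1 made up the rest. Mep1b reached 494 and 372 CPM in knockout STZ 4 wk against at most 9.50 in control, and Naaladl1 reached 42.4 and 89.0 against 0.296 and 0.422.

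**Figure D2:**
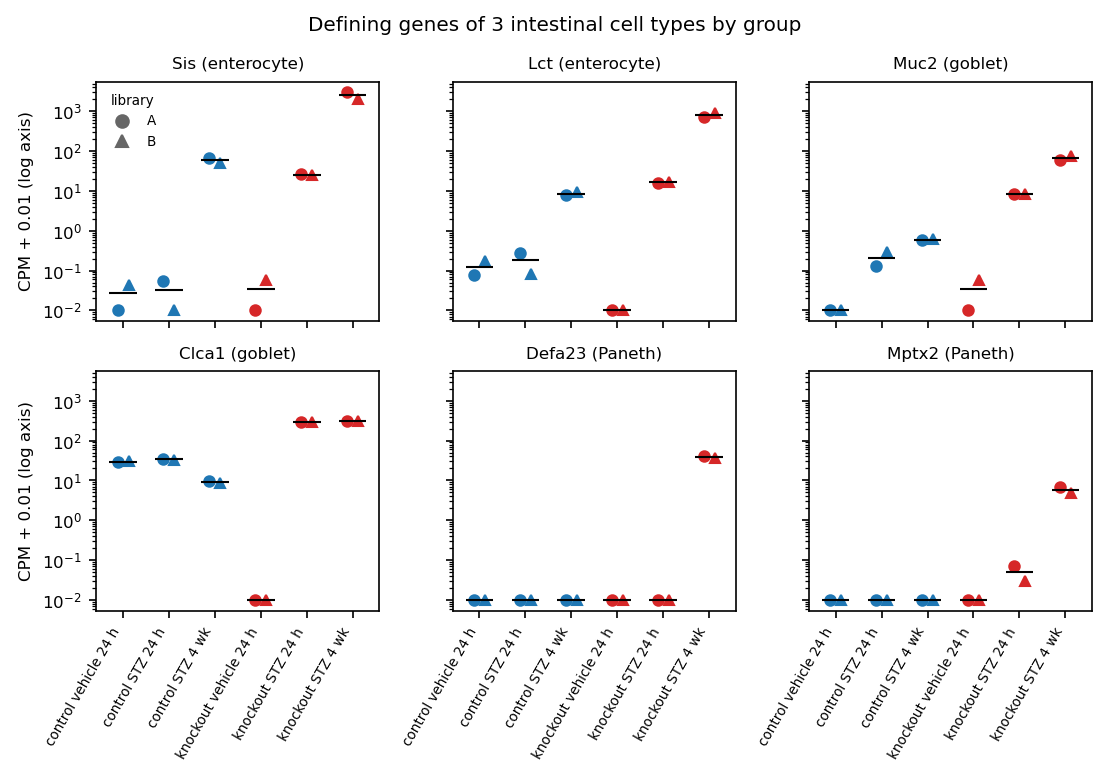
Level of Sis and Lct (enterocyte), Muc2 and Clca1 (goblet), and Defa23 and Mptx2 (Paneth) as CPM + 0.01 on a log axis, by group (circles library A, triangles library B, line the mean, blue control, red knockout). Sis and Lct rise from 24 h to 4 wk after STZ in knockout, Clca1 is at 295 and 289 and then at 320 and 308, and Defa23 leaves the floor in knockout STZ 4 wk only.

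Among the uptake genes, Fabp2, the fatty acid binding protein of enterocytes, was detected in every library. It was 0.827 and 1.15 CPM in control vehicle, 2.89 and 2.49 in its STZ 24 h group, and 59.5 and 38.0 in its STZ 4 wk group. In knockout it was 0.173 and 0.114 with vehicle, 121 and 102 at STZ 24 h, and 3049 and 2068 at STZ 4 wk. With vehicle both knockout libraries lay below both controls, and after STZ both lay above them. The log2 difference of knockout from control was -2.76 ± 0.39 with vehicle (adjusted p 0.00203, edgeR), 5.37 ± 0.32 at 24 h (5.95e-06) and 5.71 ± 0.32 at 4 wk (4.84e-06).

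Apoa4, an apolipoprotein that enterocytes load onto chylomicrons, had the same order of groups after STZ. Its level was 0.0653 and 0.216 CPM in control vehicle, 3.35 and 3.81 in its STZ 24 h group, and 17.7 and 29.5 in its STZ 4 wk group. Knockout libraries had 0.101 and 0.204 with vehicle, 179 and 203 at STZ 24 h, and 1472 and 2674 at STZ 4 wk. The vehicle groups overlapped and the STZ groups did not. Knockout exceeded control by 5.74 ± 0.46 at 24 h (adjusted p 2.28e-05, edgeR) and 6.46 ± 0.47 at 4 wk (1.87e-05). Part of the exon bases of Apoa4 (37.9% and 29.2%) is also annotated to genes on the opposite strand, which the strand option of the counting keeps apart.

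Slc5a1, the sodium-glucose cotransporter SGLT1, had the smallest adjusted p of the 41 genes at both times after STZ. It was 2.44 and 2.96 CPM in control vehicle, 3.81 and 3.99 in its STZ 24 h group, and 23.7 and 21.6 in its STZ 4 wk group. The knockout values were 1.59 and 1.75 with vehicle, 52.9 and 49.5 at STZ 24 h, then 1560 and 1477 at 4 wk. No 2 of the 6 groups overlapped. Knockout exceeded control by 3.71 ± 0.13 at 24 h (adjusted p 6.82e-07, edgeR) and 6.07 ± 0.14 at 4 wk (2.27e-07). With vehicle, the difference of -0.69 ± 0.13 (0.00814) was not called under total-count scaling (-0.16, 0.332), with only the groups compared in the fit (0.193), without control vehicle B (0.0750) or without knockout vehicle A (0.0622).

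S100g encodes calbindin-D9k, the vitamin D dependent calcium carrier of the proximal intestine, and was the exception at 4 wk. It was 0.120 CPM or less in the vehicle and control STZ 24 h libraries and 16.3 and 13.0 in control STZ 4 wk. Knockout libraries had 43.0 and 37.9 at STZ 24 h and 11.9 and 8.72 at STZ 4 wk. At 24 h knockout exceeded control by 9.63 ± 0.60 on the log2 scale (adjusted p 6.79e-06, edgeR), and at 4 wk the difference was -0.51 ± 0.38 (0.375). The other members of the group were the transporters Slc5a12 (monocarboxylates), Slc15a1 (peptides) and Slc13a1 (sulfate) and the triglyceride enzyme Mogat2. All 8 were higher in knockout at 24 h, and all but S100g at 4 wk. Slc5a12 moved from 0.247 and 0.373 CPM in knockout STZ 24 h to 189 and 128 in knockout STZ 4 wk, while control STZ 4 wk had 0.0246 and 0.0218.

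Vil1, the microvillar actin-bundling protein villin, had at least 63.8 CPM in every library. It was 64.1 and 63.8 CPM in control vehicle, 85.7 and 87.6 in its STZ 24 h group, and 84.9 and 110 in its STZ 4 wk group. Knockout libraries had 93.2 and 73.1 with vehicle, 70.7 and 75.5 at STZ 24 h, and 623 and 946 at STZ 4 wk. The first 5 of these groups lay within 63.8 to 110 CPM, and knockout STZ 4 wk stood above them. The log2 difference of knockout from control was -0.25 ± 0.21 at 24 h (adjusted p 0.379, edgeR) and 3.01 ± 0.22 at 4 wk (2.15e-05). Scaled on the endocrine genes alone, an alternative that moved the median of all genes at 24 h by 1.69, the 24 h difference turned to 1.45 (7.46e-05) and was called higher. It was called lower with only the groups compared in the fit (-0.25, 0.00685) and with a replicate block within each condition (-0.25, 0.0487). The cadherin Cdh17 and the receptor phosphatase Ptprh, both of enterocyte membranes, were higher in knockout at both times after STZ. Cdh17 was 82.3 and 72.6 CPM in knockout STZ 24 h, then 723 and 543 at 4 wk.

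Both intestinal transcription factors were higher in knockout after STZ. Cdx2 was 0.0326 and 0 CPM in control vehicle, 0.0965 and 0.0881 in its STZ 24 h group, and 0.246 and 0.277 in its STZ 4 wk group. It was 0.0216 and 0 in knockout vehicle, 0.607 and 1.03 at STZ 24 h, and 13.4 and 16.1 at STZ 4 wk. Cdx1 was at most 0.175 in control and was 0.257 and 0.468 in knockout STZ 24 h, then 3.35 and 6.52 at 4 wk, with 0 in both vehicle groups. The genotypes did not overlap after STZ for either gene. Cdx2 exceeded control by 3.14 ± 0.54 at 24 h (adjusted p 0.00167, edgeR) and 5.81 ± 0.53 at 4 wk (6.96e-05). Cdx1 exceeded it by 3.81 ± 0.93 (0.0156) and 5.07 ± 0.78 (0.00326), and the 24 h call was lost without knockout STZ 24 h B (0.0741).

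The 10 other lining genes comprise regulators, enzymes and secreted proteins of the epithelium, 9 of them higher in knockout at STZ 24 h and 10 at STZ 4 wk. Lypd8, a secreted protein that keeps flagellated bacteria off the epithelium, was 5.05 and 5.01 CPM in control vehicle, 6.16 and 6.44 in its STZ 24 h group, and 8.13 and 7.16 in its STZ 4 wk group. In knockout it was 0 in both vehicle libraries, 107 and 104 at STZ 24 h, and 152 and 142 at STZ 4 wk. Gcnt3, a glycosyltransferase that branches mucin sugars, was 2.65 and 2.36 in control vehicle, 0 in both knockout vehicle libraries, 11.4 and 9.65 in knockout STZ 24 h, then 19.8 and 19.0 at 4 wk. With vehicle, control was at least 437-fold higher for Lypd8 (adjusted p 3.73e-07, edgeR) and at least 218-fold higher for Gcnt3 (1.61e-06). Knockout exceeded control by 4.07 ± 0.12 (7.2e-07) for Lypd8 and 3.69 for Gcnt3 (4.84e-06) at 24 h.

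Adh6a, an alcohol dehydrogenase, was at 0 in all vehicle and control STZ 24 h libraries. It was 13.0 and 11.8 CPM in control STZ 4 wk. Knockout libraries had 9.76 and 8.86 at STZ 24 h, then 307 and 265 at 4 wk. It was thus slightly higher in control STZ 4 wk than in knockout STZ 24 h, an order that 4 of the 39 genes highest in knockout STZ 4 wk had. Clca4a and Clca4b, relatives of Clca1, reached 231 and 164 CPM and 940 and 669 CPM in knockout STZ 4 wk. The guanylate cyclase ligands Guca2a (guanylin) and Guca2b (uroguanylin) differed in size: 4.28 and 6.31 CPM for Guca2a and 117 and 232 for Guca2b in knockout STZ 4 wk, which are levels not scaled for length.

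Muc2 and Clca1, the gel-forming mucin and a secreted protein of goblet cell mucus, did not move together. Muc2 was 0 in both control vehicle libraries, 0.123 and 0.280 CPM in control STZ 24 h, and 0.567 and 0.612 in control STZ 4 wk. It was 0 and 0.0490 in knockout vehicle, 8.46 and 8.32 at STZ 24 h, and 59.4 and 73.6 at STZ 4 wk. Clca1 was present in control with vehicle, at 28.3 and 31.0 CPM, at 34.6 and 33.3 in control STZ 24 h, and at 9.59 and 8.67 in control STZ 4 wk. In knockout it was 0 in both vehicle libraries, 295 and 289 at STZ 24 h, and 320 and 308 at STZ 4 wk. So Clca1 was high in control libraries in which Muc2 was at or near 0.

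With vehicle, Clca1 was at least 2577-fold higher in control than in knockout (adjusted p 9.07e-08, edgeR). Knockout exceeded control for Clca1 by 3.10 ± 0.11 at 24 h (1.6e-06) and 5.10 ± 0.12 at 4 wk (3.71e-07). In control, Clca1 fell by 1.70 from vehicle to STZ 4 wk on the log2 scale (4.25e-05). Muc2 exceeded control by 5.36 ± 0.52 at 24 h (0.00012) and 6.81 ± 0.52 at 4 wk (5.61e-05). Of the 46 Muc2 exons, 42 and 44 were covered in knockout STZ 24 h, and 14 and 15 in control STZ 4 wk.

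The Paneth genes were at 0.717 CPM or less in all libraries but those of knockout STZ 4 wk. The alpha-defensins Defa3, Defa17, Defa23 and Defa24 lie on chromosome 8 and encode secreted antimicrobial peptides. Their coding sequences are shown because they bear on which gene a read can be given to. Each has 279 bases without the stop codon (GENCODE M21), and capitals mark the 15 positions at which the 4 genes differ.

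Defa3: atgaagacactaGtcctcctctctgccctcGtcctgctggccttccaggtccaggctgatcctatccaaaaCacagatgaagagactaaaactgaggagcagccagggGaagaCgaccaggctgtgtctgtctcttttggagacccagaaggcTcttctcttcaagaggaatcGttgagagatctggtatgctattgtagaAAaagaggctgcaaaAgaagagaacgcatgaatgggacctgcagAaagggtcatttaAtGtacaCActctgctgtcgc

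Defa23: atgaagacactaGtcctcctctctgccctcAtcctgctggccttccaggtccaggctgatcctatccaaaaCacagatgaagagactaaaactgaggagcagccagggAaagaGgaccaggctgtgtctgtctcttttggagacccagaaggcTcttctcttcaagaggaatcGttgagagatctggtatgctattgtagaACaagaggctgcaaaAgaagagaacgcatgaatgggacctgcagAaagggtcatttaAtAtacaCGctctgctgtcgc

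Defa24: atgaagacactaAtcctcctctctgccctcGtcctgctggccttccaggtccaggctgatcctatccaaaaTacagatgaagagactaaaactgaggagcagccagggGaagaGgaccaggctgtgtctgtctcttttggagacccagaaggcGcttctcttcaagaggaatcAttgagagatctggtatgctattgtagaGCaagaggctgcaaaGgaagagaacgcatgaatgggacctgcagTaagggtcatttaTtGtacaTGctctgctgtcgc

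Defa17 is identical to Defa3 over these 279 bases. Defa23 differs from Defa3 at 6 positions (97.9% identity) and Defa24 at 12 (95.7%), and Defa23 also shares 45.1% of its exon bases with the annotated Defa31 on the same strand. Reads of one may therefore have been counted for another, and the values of the single defensins are uncertain.

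Defa23 was at 0 in 10 libraries and at 42.3 and 36.0 CPM in knockout STZ 4 wk. Defa24 was 51.4 and 41.0 there and at most 0.0287 elsewhere. Defa3 was 19.0 and 19.1, and Defa17 was 21.3 and 20.7, against at most 0.0163 in any other library. The 4 genes thus had values above a trace only in the knockout STZ 4 wk libraries, both of them. Knockout was at least 1643-fold higher than control at STZ 4 wk for Defa3 (adjusted p 0.000317, edgeR), at least 1810-fold for Defa17 (0.000297) and at least 3358-fold for Defa23 (0.000241). For Defa24 the count ratio was 11860.0, with a counting interval of 2129 to 468600.0 (2.08e-05). The 4 genes passed the filter only through knockout STZ 4 wk, so these adjusted p are not independent tests of a difference there.

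Ang4, an antimicrobial angiogenin, was 0.0309 and 0 CPM in knockout STZ 24 h, then 6.04 and 4.59 at 4 wk. Mptx2, a mucosal pentraxin, was 0.0617 and 0.0191 and then 6.76 and 4.71. Both were 0 in the other 8 libraries. Itln1, a lectin that binds microbial sugars, was 0.658 and 0.717 in knockout STZ 24 h, then 27.0 and 28.9 at 4 wk, and at most 0.0321 in the rest. All 7 Paneth genes were higher in knockout at 4 wk, at least 454-fold for Ang4, 488-fold for Mptx2 and 2419-fold for Itln1. All but Itln1 passed the filter only through knockout STZ 4 wk, so their calls there were not independent of the filter. Itln1 passed it only through the knockout STZ groups, so its calls against control at 24 h and 4 wk were not independent of it either. DESeq2's Wald test did not call Ang4 (adjusted p 0.0638) or Mptx2 (0.0609).

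At STZ 24 h only Itln1 and Mptx2 of the 7 were called. Itln1 exceeded control by 5.28 ± 0.63 on the log2 scale (adjusted p 0.00131, edgeR). Mptx2 was at least 3.15-fold higher (0.0438), and that call was lost without control STZ 24 h A (0.108) or B (0.118), without knockout STZ 24 h A (0.135) and with DESeq2 (0.485).

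Enterocyte, goblet and Paneth genes were set against each other on the TPM scale, the deposited transcript level per length and depth, because counts of genes of unlike length cannot be compared. Muc2 plus Clca1 was 14.6 and 14.2 times Sis plus Lct in knockout STZ 24 h, 0.189 and 0.235 times in knockout STZ 4 wk, and 0.262 and 0.308 times in control STZ 4 wk. For Muc2 alone the ratio was 0.180 and 0.176, 0.0142 and 0.0221, and 0.00657 and 0.00919 in the same order. Among these 3 groups the goblet genes stood highest relative to the enterocyte pair in knockout STZ 24 h with either measure, with no overlap between the groups for Muc2 and none with knockout STZ 24 h for the sum. That order depends on the pair. From 24 h to 4 wk in knockout, mean Muc2 went from 1.61 to 16.2 TPM, Alpi from 83.9 to 381 and Akp3 from 189 to 114. Relative to Alpi, Akp3 and S100g, Muc2 was thus higher at 4 wk. Relative to Fabp2 and Apoa4 it was higher at 24 h. The sum was mostly Clca1, with 129 TPM in knockout STZ 24 h. In control vehicle and control STZ 24 h, Sis plus Lct had only 6 to 36 counts, and Muc2 plus Clca1 took 99.1% to 99.8% of the counts of these 4 genes.

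The Paneth genes (Defa3, Defa17, Defa23, Defa24, Ang4 and Mptx2) were 0.0186 and 0.0107 times Sis plus Lct in TPM in knockout STZ 24 h, and 0.546 and 0.595 times in knockout STZ 4 wk. In control STZ 4 wk the ratio was 0.000934 and 0. Control STZ 4 wk had less Lct, Fabp2 and Alpi than knockout STZ 24 h, with means of 2.26, 84.6 and 24.0 TPM against 3.43, 149 and 83.9. By CPM, it came second for only 4 of the 39 genes highest in knockout STZ 4 wk, Sis among them. Control STZ 4 wk had more Sis than knockout STZ 24 h and yet 1 and 0 Paneth counts. As a share of the counts of Paneth genes plus Sis and Lct, this was 0.0109% (exact 95% interval 0.000275% to 0.0605%) in A and 0 in B (exact upper limit 0.0458%). The share was 0.246% and 0.113% in knockout STZ 24 h, then 3.82% and 4.10% at 4 wk. These intervals cover counting error only.

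On the TPM scale, the leading genes changed between groups. Fabp2 led in knockout STZ 4 wk with 4436 ± 1615 TPM (SD, n = 2), followed by Apoa4 with 2014 ± 642, and Sis had 714 ± 259. Defa24 and Defa23 had 184 and 155 TPM there, close to Clca1 with 177, while Muc2 had 16.2. In knockout STZ 24 h, Akp3 led with 189 ± 12.3 TPM, and Fabp2, Prap1, Apoa4, Clca1, Lypd8 and S100g all lay between 109 and 149. In control STZ 4 wk, Fabp2 had 84.6 TPM, Vil1 50.9 and S100g 50.7.

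The 2 knockout STZ groups were then compared directly, a comparison added after the values were seen. From 24 h to 4 wk, 37 of the 41 genes rose and 2 fell, against 20.2% and 15.5% of all genes tested, and the median over the 41 was 4.12. S100g fell by 1.97 (adjusted p 0.00442, edgeR) and Akp3 fell by 1.06 (0.0485) on the log2 scale. The call of Akp3 was lost without knockout STZ 24 h A (0.128) or B (0.185) and without knockout STZ 4 wk A (0.158). Sis rose by 6.62 ± 0.49 (2.75e-05), Slc5a1 by 4.89 (5.19e-07), Vil1 by 3.42 (1.6e-05) and Cdx2 by 4.17 (0.000276).

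The goblet genes differed in this comparison: Muc2 rose by 2.99 ± 0.43 (adjusted p 0.00132, edgeR), whereas Clca1 changed by 0.11 ± 0.10 (0.463). Clca3b, the other gene not called, changed by 0.57 (0.0719). Lypd8 rose by 0.47 ± 0.10 (0.00913), a call lost without knockout STZ 24 h A (0.052) or B (0.0683), and Gcnt3 rose by 0.88 (0.00367). But with scaling on the endocrine genes these 2 turned negative, to -0.72 (0.00174) and -0.31 (0.151), and Clca1 and Clca3b became lower, at -1.09 (0.000134) and -0.62 (0.0332). Under it 34 of the 41 were higher and 5 lower. That scaling moved the median of all genes by -1.09. The 7 Paneth genes rose, Defa23 at least 2616-fold and Itln1 by 5.34 ± 0.45 (0.000465). DESeq2's Wald test did not call the rise of Ang4 (adjusted p 0.192) or Mptx2 (0.28). Nor did it call that of Enpp7 (0.135), Slc13a1 (0.177) or Guca2a (0.324).

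**Figure D3:**
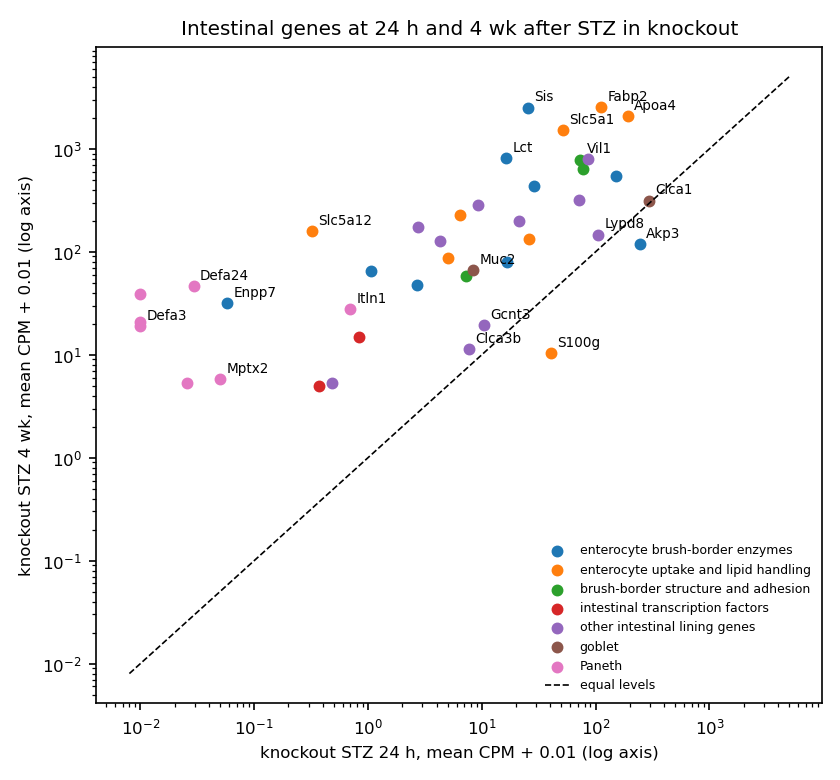
Mean level of each of the 41 genes in knockout STZ 24 h (horizontal) against knockout STZ 4 wk (vertical), both as CPM + 0.01 on log axes, coloured by role, with a dashed line of equal levels. S100g and Akp3 lie below the line and the 4 defensins farthest above it. Lypd8 and Gcnt3 lie just above it. With scaling on the endocrine genes both turn negative, called for Lypd8 only, and Clca1 and Clca3b are called lower too.

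Ratios between enterocyte genes also differed between groups. In TPM, S100g was 0.716 and 0.748 times Fabp2 in knockout STZ 24 h, 0.552 and 0.686 times in control STZ 4 wk, and 0.00785 and 0.00847 times in knockout STZ 4 wk. Akp3 was 2.25 and 2.26 times Alpi in knockout STZ 24 h, 1.69 and 1.98 times in control STZ 4 wk, and 0.287 and 0.310 times in knockout STZ 4 wk. For both pairs the control STZ 4 wk libraries lay nearer to knockout STZ 24 h than to knockout STZ 4 wk.

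Whether STZ changed the genes by a different amount in knockout was tested as the genotype difference of the STZ effect. At 24 h, 18 of the 41 were called, all larger in knockout, against 21.1% of all genes in that direction and 16.6% in the other. At 4 wk, 16 were called, again all larger in knockout, against 18.7% and 7.35% of all genes. Fabp2 had a difference of 8.13 at 24 h (adjusted p 5.79e-06, edgeR) and 8.47 at 4 wk (4.78e-06), Apoa4 5.63 (0.00134) and 6.35 (0.00107), and Slc5a1 4.41 (6.94e-07) and 6.76 (1.04e-07). For Vil1 it was 2.63 ± 0.30 (0.000243) at 4 wk. At 24 h it was -0.62 (0.134), but its call turned with the setting. It was called lower with total-count scaling (-1.41, 0.00325), with a replicate block within each condition (-0.61, 0.00422) and with only the groups compared (-0.62, 0.02), and higher with scaling on the endocrine genes (1.48, 0.000648). Of the 41, 8 at 24 h and 9 at 4 wk had counts in all 4 groups of the test, and 5 and 5 of them were called. Of the 15 and 19 genes with 1 group at 0, 10 and 11 were called. Of the 18 and 13 genes with 0 in at least 2 groups, 3 and 0 were called. With a group at 0, the size of the difference is not fixed by the data.

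Genes of the same cell types outside the 41 were taken from further lists. Of all genes, 1.96% were higher and 7.68% lower in knockout with vehicle, 23.7% and 19.4% at STZ 24 h, and 19.9% and 7.89% at STZ 4 wk. The counts of each list below stand against these shares, and whether they differ from them was not tested. Of 32 further enterocyte genes, 7 were lower and 1 higher in knockout with vehicle, 24 higher and 2 lower at STZ 24 h, and 30 higher and 1 lower at STZ 4 wk. The esterase Ces2e was 257 and 258 CPM in knockout STZ 24 h, then 464 and 473 at 4 wk, against 28.1 and 28.0 in control STZ 4 wk. The amino acid transporter Slc6a19 was 14.7 in both knockout STZ 24 h libraries and 274 and 260 at 4 wk. Slc2a2, the glucose transporter GLUT2 of enterocytes and also of beta cells, was the gene lower at 4 wk (log2 difference -0.56). Several of the 32, such as Cps1, are liver genes too.

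Of 12 tested further goblet genes, 6 were lower with vehicle, 6 higher and 2 lower at STZ 24 h, and 8 higher at STZ 4 wk. The trefoil peptide Tff3 was 62.7 and 67.0 CPM in knockout STZ 24 h, then 91.7 and 154 at 4 wk, against 2.37 and 3.38 in control STZ 4 wk. Of 12 tested further Paneth genes, 2 were lower with vehicle, 4 higher at STZ 24 h and 12 higher at STZ 4 wk. Lyz1, the Paneth lysozyme, was already 26.2 and 25.3 CPM in knockout STZ 24 h and was 115 and 96.6 at 4 wk, against 0.468 and 0.379 in control STZ 4 wk. Its close paralog Lyz2, the macrophage lysozyme, was 670 and 637 CPM in knockout STZ 24 h and 92.1 and 84.4 at 4 wk, against 21.1 and 20.6 in control vehicle, and reads of the 2 genes may have been shared. Of 10 macrophage genes, 10 were higher in knockout at STZ 24 h and 9 at 4 wk, and their part in the Lyz1 values was not tested. Reg3g, which acinar cells also make, was 532 and 521 CPM in control vehicle.

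Of 9 intestinal hormone-cell genes, 0 were called with vehicle, 5 were higher and 2 lower at STZ 24 h, and 5 higher and 1 lower at STZ 4 wk. The hormone Gip, of duodenal K cells, was 0.525 and 0.497 CPM in knockout STZ 24 h, then 19.4 and 22.6 at 4 wk. Of 8 stem and transit genes, 3 were lower with vehicle. At STZ 24 h, 3 (Mki67, Smoc2 and Sox9) were higher and 2 (Olfm4 and Rgmb) lower, and at STZ 4 wk 4 were higher, among them Lgr5 (log2 difference 2.17). Of genes that mark position along the gut, Gata4, of the proximal intestine, was 24.1 and 25.8 CPM in knockout STZ 24 h, then 26.9 and 33.9 at 4 wk, and 3.36 to 11.1 in the vehicle libraries. The iron handling genes Cybrd1 and Slc40a1, of the same list, were lower in knockout STZ 4 wk (5.28 and 4.6 CPM, and 76.5 and 57.6) than in knockout STZ 24 h (14.8 and 15.7, and 190.3 and 168). Fabp6 and Fgf15, of the ileum, were at most 0.0823 CPM and at 0 in every library. The ileal bile acid transporter Slc10a2 was higher in knockout STZ 24 h, at 6.78 and 6.61 CPM, than in knockout STZ 4 wk, at 1.11 and 0.680. Of the colon genes, Hoxa13, Hoxb13 and Hoxd13 were 0 in every library. Of the 5 colon genes tested, 1 was lower in knockout with vehicle. At STZ 24 h 3 were higher, Aqp8 and Slc26a3 among them, and at 4 wk 3, Car4 and Slc26a3 among them. The anion exchanger Slc26a3 had 59.6 and 44.4 CPM in knockout STZ 4 wk.

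Genes of other tissues moved between the same groups, and their part in the intestinal result was not tested. The 14 hepatocyte genes took 1.83% and 1.79% of counts in knockout STZ 24 h, 0.564% and 0.557% in knockout STZ 4 wk, and 0.0921% to 0.701% in the other groups, the highest of these being control STZ 24 h. In the vehicle libraries that share was largely Ttr, which islets make too. Albumin (Alb) was 1.84 to 129 CPM with vehicle. In control it was 2853 and 2932 at STZ 24 h, then 906 and 743 at 4 wk. In knockout it was 10761 and 10129.9 at STZ 24 h, then 3029.9 and 2515 at 4 wk. The 10 lymph node and lymphocyte genes took 0.0440% and 0.0442% in knockout STZ 24 h, then 0.0021% and 0.00304% at 4 wk. Both lists were thus highest in knockout STZ 24 h, whereas the intestinal genes were highest in knockout STZ 4 wk. The 18 acinar genes took 32.9% and 33.4%, 21.8% and 22.1% in these groups, and 10.5% and 10.4% in knockout vehicle, where all 18 were lower than in control.

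The 10 visceral smooth muscle genes, of the muscle coat of hollow organs, took 0.0126% and 0.0143% of counts in knockout STZ 24 h, then 0.0155% and 0.0205% at 4 wk. Control vehicle had 0.0203% and 0.0207%, control STZ 4 wk 0.00446% and 0.00549%, and knockout vehicle 0.00459% and 0.00372%. In knockout against control, 9 of the 10 were lower with vehicle, 3 higher at STZ 24 h and 8 higher at STZ 4 wk. The stomach lining genes took 0.0275% and 0.0348% in knockout STZ 4 wk, and 0.0633% and 0.0572% in control vehicle. In knockout STZ 4 wk nearly all of it was the trefoil peptide Tff2, with 28642 of 29243 and 43323 of 44083 counts, and 8 of the 13 genes, Gkn1 and Tff1 among them, were at 0 in each library.

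**Figure D4:**
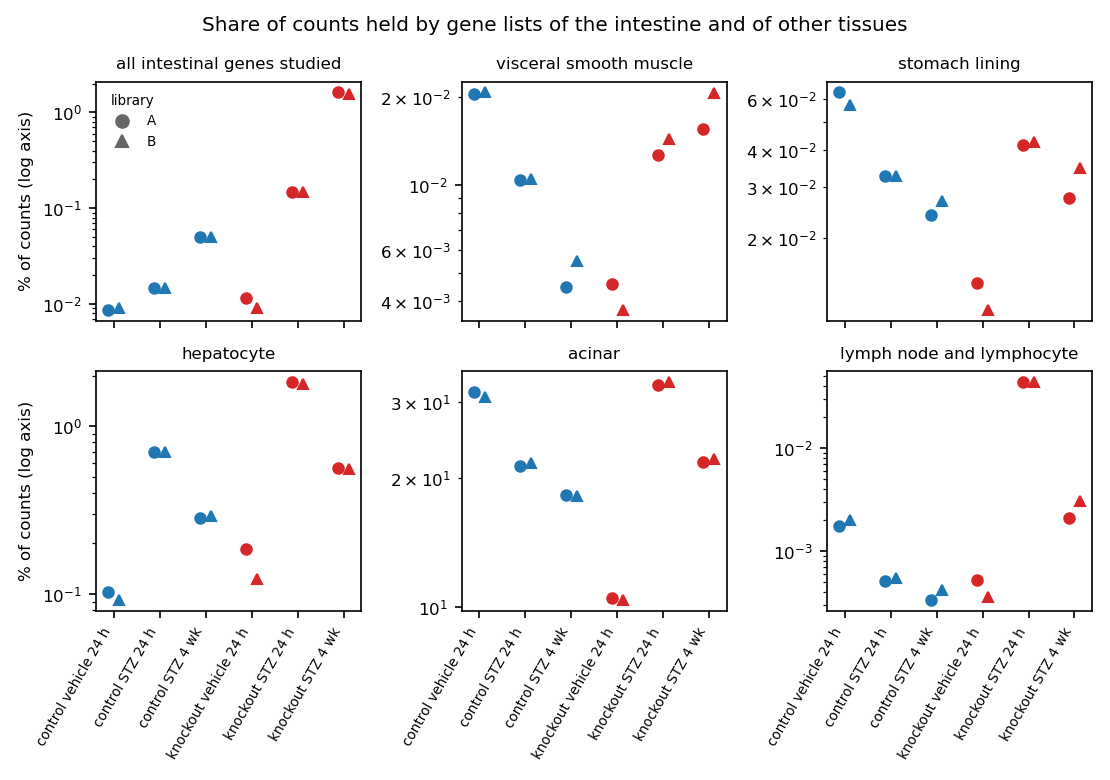
Share of all counts (percent, each panel on its own log axis) taken by the intestinal genes and by lists for smooth muscle, stomach lining, hepatocytes, acinar cells and lymph node, by group (circles library A, triangles library B). The intestinal genes are highest in knockout STZ 4 wk at 1.62% and 1.55%, and the hepatocyte and lymph node lists in knockout STZ 24 h.

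Within knockout STZ 4 wk, A and B differed in a regular way over the 41 genes. Sis and Fabp2, with 40.5% and 42.4% GC, were each 1.47 times as high in A as in B, whereas Apoa4, with 57.6%, and Cdx1, with 62.1%, were 0.550 and 0.513 times as high. Across the 41 genes, the log2 gap had a correlation of -0.90 with GC content, and across 16708 genes of all kinds of -0.55. Genes are not independent, and those within a library share its base composition, so these are descriptions. In control STZ 4 wk the correlation over the 41 was -0.57.

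**Figure D5:**
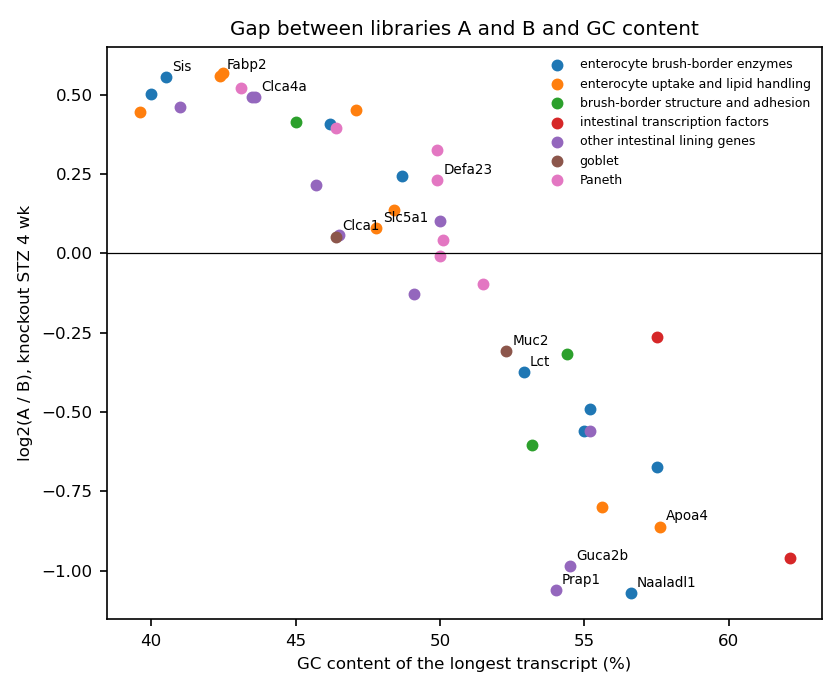
Gap between libraries A and B of knockout STZ 4 wk (vertical, log2 of A over B) against the GC content of the longest transcript in percent (horizontal), 1 point for each of the 41 genes, coloured by role. Genes of low GC such as Fabp2 lie above 0 and genes of high GC such as Cdx1 below it.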

How the data were processed

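RNA of islets from 12 libraries in 6 groups was analysed. The authors deposited estimated counts (expected counts) per gene and transcript, not scaled for depth, and 1 transcript file per library with coverage and TPM. Per the file headers, StringTie 1.3.6 quantified a fixed mm10 annotation with the strand option. Which aligner was used is not given here. All 421428 transcript counts are the product of coverage and length divided by 75 and rounded up, although the labels give paired reads of 100 bases, so a count is not a read number.

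Computed here with R 4.3.3 and edgeR 4.0.16: TMM factors (0.825 to 1.21), CPM on TMM-scaled totals, filterByExpr, and 1 robust quasi-likelihood fit of the 6 group means over all libraries (common dispersion 0.0493, 6 residual degrees of freedom). The test is two-sided, with Benjamini-Hochberg adjustment over 17411 genes per comparison. The code was tested on simulated data. Totals of 101772241 to 127207523 counts leave counting error small except near 0. A fold against a group at 0 is a bound from 3 counts over the group, and intervals are exact at 95% and cover counting error only. Libraries A and B of a group differed by a chi-square of 23.0 to 432 per degree of freedom, so neither was a copy of the other. Whether they are repeat preparations of the same RNA cannot be told from this.

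The 41 genes and all lists were chosen with earlier results of these data known. Named with all values were 19 genes (the compared classes and main roles), the members with the 5 smallest adjusted p in a comparison, and up to 3 called genes per further list. Alternatives were other scalings, no filter, DESeq2 1.42.0, a replicate block, only the groups compared, and each library left out.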

Additional observations from a re-analysis of the deposited data

Results flagged for a closer look

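The STZ effect differed between the genotypes by the test of that difference for 18 of the 41 genes at 24 h and for 16 at 4 wk, all with a larger effect in knockout. Only 5 of the 18 and 5 of the 16 had counts in all 4 groups of the test. For the rest the size of the difference is not fixed by the data. For Lct and Clca1 the group at 0 was knockout vehicle. At 24 h the adjusted p (edgeR) was 0.0341 for Sis, 0.0003 for Lct, 0.00134 for Apoa4, 5.79e-06 for Fabp2, 3.28e-08 for Clca1, 7.76e-05 for S100g, 6.94e-07 for Slc5a1 and 0.00226 for Tmprss15. At 4 wk it was 0.00037 for Lct, 0.00107 for Apoa4, 4.78e-06 for Fabp2, 0.000243 for Vil1, 0.0248 for Cdx2, 2.7e-08 for Clca1, 1.04e-07 for Slc5a1 and 0.0215 for Tmprss15.

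Some of these calls changed with the setting. Sis at 24 h was not called without knockout STZ 24 h A or B (0.057 each) or without control vehicle B (1). Tmprss15 at both times had an adjusted p of 1 without control vehicle B, the only vehicle library with a count of it. Cdx2 at 4 wk was not called without control vehicle A (0.967) or with only the groups compared (0.0562). The calls of Fabp2, Apoa4, Slc5a1, Lct and Clca1 held without any 1 library.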

How the results depend on the processing

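The count of intestinal genes called was within 1.5 times of that reported in all alternatives but 6. For knockout against control with vehicle (7) it was 4 with only the groups compared and 12 with DESeq2, and for the difference of the STZ effect at 4 wk (16) it was 30 with DESeq2. For STZ 24 h against vehicle in control (11) it was 6 without control vehicle A, without control vehicle B or without control STZ 24 h B. Leaving out each library gave 5 to 7 for the vehicle comparison of genotypes, 32 to 33 at STZ 24 h, 39 to 40 at STZ 4 wk, 6 to 8 and 24 to 25 for STZ 24 h and 4 wk in control, 32 to 34 and 41 in knockout, 35 to 38 between the times in knockout, and 14 to 20 and 14 to 17 for the differences of effect. Lypd8 (-0.72) and Gcnt3 (-0.31) reversed between the times with scaling on the endocrine genes, and the cause was not tested. Of 3173 recomputed values of single genes, 3074 kept direction and call, 97 lost the call and 2 reversed.

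The labels do not pair A and B. Correlations of deviations between groups ran from -0.325 to 0.405, which cannot decide whether the replicate letters mark pairs. The highest was between the STZ 4 wk groups of the genotypes. There the gap between A and B also followed GC content, with correlations over 16708 genes of -0.554 in knockout and -0.452 in control. With the letter as a replicate block the counts were 7, 33 and 40 for knockout against control, 10 and 28 for STZ in control, 34 and 41 in knockout, 39 between the times, and 18 and 16 for the differences of effect. With a block within each condition they were 10, 36 and 40 for knockout against control, and 20 and 17 for the differences of effect.

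Counts over all genes moved more. Knockout against control with vehicle called 1679 genes, against 7205 with total-count scaling, 3747 with scaling on the endocrine genes, 2619 with DESeq2 and 940 with only the groups compared. At STZ 24 h the 7491 became 14474 with scaling on the endocrine genes and 11328 with only the groups compared, and at STZ 4 wk the 4839 became 7708 and 2148. With a replicate block within each condition, the 1679, 7491 and 4839 became 3527, 10349 and 8183.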
